A study of Mus musculus with 4 samples.

Results

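Ribosome biogenesis factors are the proteins that process ribosomal RNA and assemble it with ribosomal proteins. They were taken by symbol from the gene count table: symbols that start with Nop, Utp, Rrp or Nol and a digit, plus Noc2l, Noc3l, Noc4l, Rrs1, Bop1, Pes1, Wdr12, Bms1, Ncl, Npm1, Fbl, Dkc1, Gar1, Nhp2 and Nolc1. This gave 52 genes of 55401 in the table, and 1 pseudogene symbol was left out. The rule used names and no measured value. The data are 4sU-seq counts, in which RNA made during exposure to 4-thiouridine is tagged and sequenced, from 129/Ola mouse embryonic stem cells grown with leukemia inhibitory factor. All libraries came from the SNRNP70AID line, in which SNRNP70 carries an auxin-inducible degron, and SNRNP70 (U1-70K) is part of the U1 snRNP, the splicing particle that recognises the start of introns. The 0 h group (2 libraries) had no auxin, and its genotype label reads WT although its titles name the degron line. The 5 h group (2 libraries) had the auxin IAA for 5 h, and its genotype label reads SNRNP70 degration. The labels do not state the labelling time, the number of clones or the source of the auxin receptor, and nothing in the labels says that the replicates were separate cultures. If they were not, the p-values cover only variation between these libraries, which may be technical. The series set loss of SNRNP70 beside loss of the zinc finger protein ZFP207, and the ZFP207 arm was not analysed here.

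Ribosomes are built in the nucleolus. A long precursor RNA made by RNA polymerase I is modified under the guidance of small nucleolar ribonucleoproteins (snoRNPs), cut, and folded into a small and a large subunit. The small subunit forms inside a large particle, the small subunit processome, which is organised by the U3 snoRNP and the Utp proteins. The large subunit passes through a series of nucleolar and nuclear intermediates that carry the Noc, Nop and Pes1-Bop1-Wdr12 proteins. Embryonic stem cells divide fast and are known for high ribosome production.

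Total counts ran from 7174772 to 17752887 per library, so 3 counts corresponded to 0.154 to 0.382 CPM, the count after scaling each library to the same sum with its TMM factor, in which all levels are given. Across genes, log CPM correlated at r = 0.969 and 0.965 between replicates and at 0.906 to 0.931 between the groups. Of 10 pluripotency markers, 5 rose and 2 fell by edgeR, against 22% and 21.2% of all tested genes. The 2 that fell were Nanog (log2 fold change -0.27) and Tdgf1 (-0.64). The summed level of the 10 markers was 3118 to 3236 CPM at 0 h and 3560 to 3576 CPM at 5 h. Of 6 fibroblast feeder markers none rose or fell by edgeR, 4 of them were too low to test, and their sum lay between 9.16 and 13.1 CPM, with Postn, Dcn and Col3a1 at 0 in every library. The 6 primitive endoderm markers summed to 8.14 to 15.3 CPM, and none rose or fell by edgeR, with 1 too low to test. The 7 early differentiation markers summed to 27.9 to 36.3 CPM, of which 1, Sox1, rose and 2 were too low to test. In such bulk libraries, fewer cells of a type and less RNA per cell cannot be told apart.

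Many of the measured ribosome biogenesis genes carried more labelled RNA after 5 h of auxin, relative to the other genes, and a few carried less. Of the 52 genes, 50 passed the filter on low counts. Of these 25 rose (50%), 6 fell (12%) and 19 did not pass the test, against 22% that rose and 21.2% that fell among all 17344 tested genes (edgeR's quasi-likelihood test, Benjamini-Hochberg adjusted p under 0.05). DESeq2 called 24 of the former and 5 of the latter (background 19.4% and 16.8%). The median log2 fold change (5 h minus 0 h) was 0.40, with quartiles of -0.01 and 0.78, beside -0.02 for all tested genes, whose quartiles were -0.64 and 0.55. The change was 2-fold or more for 6 genes that rose (Noc2l, Utp25, Ncl, Rrs1, Nop56 and Rrp9) and for 1 that fell, Utp11, where 7.6% and 10.2% of all tested genes rose and fell by that much. In 35 of the 50 genes both 5 h libraries lay above both 0 h libraries, and in 10 both lay below, against 36% and 37.5% of all tested genes. All 52 genes summed to 0.937% and 0.969% of all counts in the 0 h libraries and 1.09% and 1.13% in the 5 h libraries. Without Ncl, the gene with the most counts, these shares were 0.777% and 0.800%, and 0.831% and 0.819%.

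The direction of a change here is relative, because the labels name no spiked-in RNA. The values above use TMM scaling, which takes most genes as the reference. When the library totals were the scale, the median of all tested genes was -0.28, and 16 ribosome biogenesis genes rose (32%) and 11 fell (22%), against 13.2% and 30.3% of all tested genes, with a median of 0.13. The 16 were all among the 25, and Nol7, Nol11, Nolc1, Nop9, Nop16, Pes1, Rrp1b, Rrp7a and Utp14b lost their call. With the mitochondrially encoded RNAs as the scale the median of all genes was -0.86, and 1 ribosome biogenesis gene, Noc2l, rose (2%) while 26 fell (52%), with a median of -0.44. Both shares were near those of all tested genes (2.28% and 51.2%). Mitochondrially encoded genes took 4.34% to 4.41% of counts at 0 h and 6.03% to 7.17% at 5 h. Under mitochondrial scaling 3 genes that rose with TMM fell: Nol11, Rrp1b and Utp14b. The median of the ribosome biogenesis genes stayed above that of all genes by about the same distance with each scale, which shifts all genes nearly alike. In the following, "rose" and "fell" refer to the TMM fit.

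**Figure D1:**
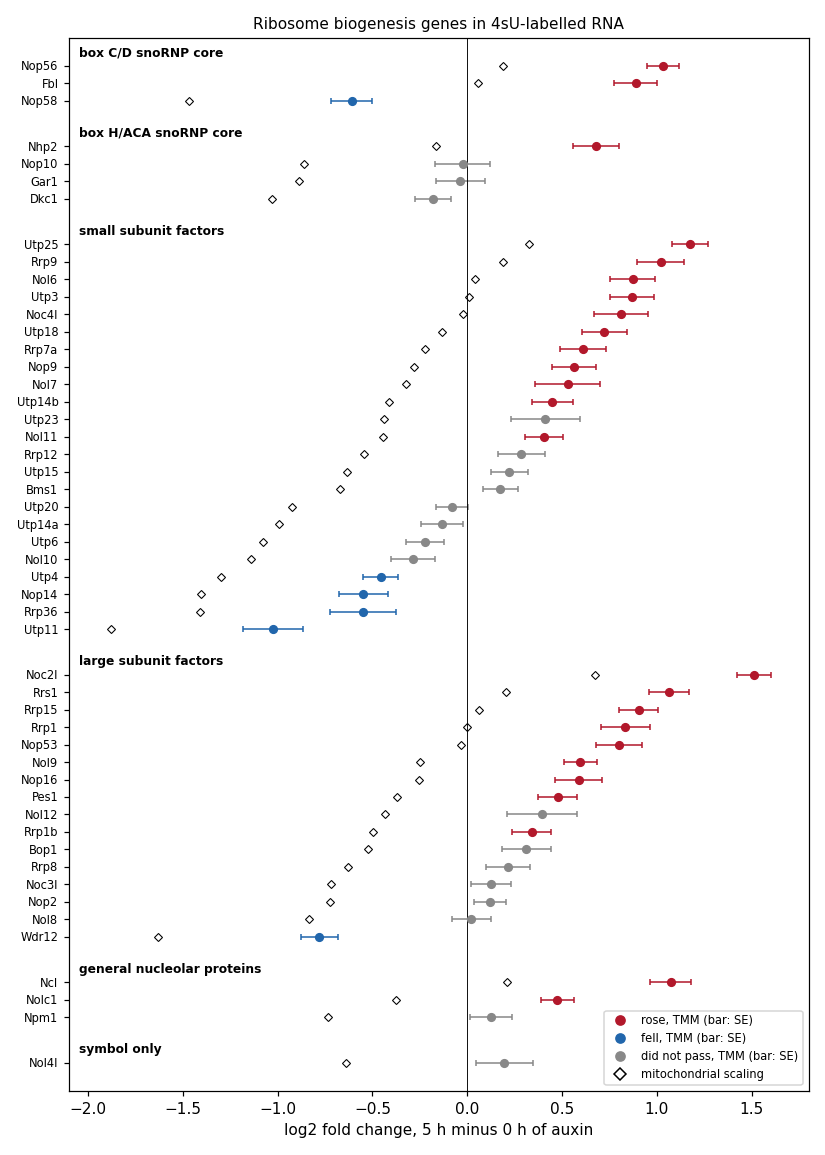
Log2 fold change (5 h minus 0 h of auxin, x axis) of the 50 tested ribosome biogenesis genes, grouped by role, with filled points for the TMM fit (bar: SE) and open diamonds for mitochondrial scaling. With TMM the genes run from -1.02 (Utp11) to 1.51 (Noc2l), and with mitochondrial scaling 11 of the 50 are above 0.

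The box C/D snoRNP places methyl groups on ribosomal RNA, and the labelled RNA of its core protein genes moved in opposite directions with TMM scaling. Nop56, Fbl and Nop58 fall under the name rule. Snu13, a further core protein outside the rule, rose by 0.82 ± 0.10 on the log2 scale (edgeR adjusted p = 0.000152). Nop56, a scaffold protein of the particle, had 512 and 480 CPM at 0 h and 1044 and 984 CPM at 5 h. It lies on chromosome 2 from 130274367 to 130279313 (mm10). Every 5 h library was well above either 0 h library, and its log2 fold change was 1.03 ± 0.08 (SE; edgeR, Benjamini-Hochberg adjusted p = 1.97e-05). Fbl, which encodes the methyltransferase fibrillarin, had 88.1 and 80.4 CPM at 0 h and 170 and 143 CPM at 5 h, a log2 fold change of 0.89 ± 0.12 (edgeR adjusted p = 0.00019). Nop58, which pairs with Nop56 in the same scaffold, lies on chromosome 1 from 59684961 to 59711510 and had 578 and 646 CPM at 0 h and 363 and 440 CPM at 5 h. Its libraries did not overlap between the groups, and it fell by 0.61 on the log2 scale (SE 0.11; edgeR adjusted p = 0.00116). With mitochondrial scaling Nop58 fell (log2 -1.47), while Nop56 (0.19) and Fbl (0.056) did not pass by edgeR.

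Nop58 and Nop56 both hold annotated snoRNA genes inside their spans, 4 and 5 of them, and an unspliced host and a snoRNA can share reads. Of the 3 tested snoRNA rows within Nop58, 2 rose and 1 did not pass. Snord11 had 73 and 29 counts at 0 h and 94 and 71 at 5 h, and rose by 0.92 on the log2 scale (edgeR adjusted p = 0.0366; 0.118 with library totals as the scale). Another snoRNA row, Gm26287, rose by 1.17 (edgeR adjusted p = 0.00638), and Snord70 had a log2 fold change of -0.08 (edgeR adjusted p = 0.892). In Nop56 the row Snord110 had 24 and 11 counts at 0 h and 44 and 22 at 5 h (log2 1.05, edgeR adjusted p = 0.134). Their part in the values of the hosts was not tested. Of the 50 tested genes, 5 held a snoRNA in the span (Nop56, Nop58, Nop53, Dkc1 and Ncl). The other 45 had 22 that rose (48.9%) and 5 that fell (11.1%), against 22% and 21.2% of all tested genes. Their median was 0.39.

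The box H/ACA snoRNP converts uridines of ribosomal RNA to pseudouridine, and of the genes of its 4 core proteins 1 rose and 3 did not pass. The share that rose (25%) was near that of all tested genes (22%). Nhp2, a core protein that binds the guide RNA, had 51.2 and 45.7 CPM at 0 h and 76.3 and 79.3 CPM at 5 h, a log2 fold change of 0.68 ± 0.12 (edgeR adjusted p = 0.00115). The pseudouridine synthase gene Dkc1 had 226 and 253 CPM at 0 h and 208 and 214 CPM at 5 h, with a log2 fold change of -0.18 ± 0.09 (edgeR adjusted p = 0.148). Gar1, which helps substrate turnover, was at 43.8 and 47.2 CPM and then 42.1 and 46.6 CPM (log2 -0.04 ± 0.13). Nop10, the smallest core protein, was at 33.6 and 32.3 CPM and then 34.5 and 30.3 CPM (log2 -0.02 ± 0.15). For Gar1 and Nop10 the 2 groups overlapped.

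Genes of the small subunit processome and later small subunit factors included genes that rose and genes that fell. Of 23 tested genes, 11 rose (47.8%), 4 fell (17.4%) and 8 did not pass, against 22% and 21.2% of all tested genes, so the share that fell was near the background. The list had a median log2 fold change of 0.40 that became -0.45 with mitochondrial scaling. Utp25, a processome component, had 94.0 and 91.5 CPM at 0 h and 206 and 212 CPM at 5 h, and both groups were tight. Its log2 fold change was 1.17 ± 0.09 (2.26-fold; edgeR adjusted p = 1.74e-05). Rrp9, a protein of the U3 snoRNP, had 54.1 and 52.3 CPM at 0 h and 119 and 97.1 CPM at 5 h (log2 1.02 ± 0.12, edgeR adjusted p = 0.000135). Nol6 had 123 and 115 CPM at 0 h and 242 and 193 CPM at 5 h (log2 0.87 ± 0.12, edgeR adjusted p = 0.000247).

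Utp3 (0.87), Noc4l (0.81), Utp18 (0.72), Rrp7a (0.61), Nop9 (0.57), Nol7 (0.53), Utp14b (0.45) and Nol11 (0.40) also rose, given as log2 fold changes. Nol7 was the only one of these that DESeq2 did not call (adjusted p = 0.0869). Its call was also lost without either 0 h library or without 5 h replicate 2. Leaving out each library gave it log2 fold changes of 0.44 to 0.61. Such a fit has a single library in one group, so a lost call can also reflect lower power. Utp14b is an intronless copy of Utp14a that lies inside Acsl3, over its whole annotated span of 9777 bases, so reads from unspliced Acsl3 and from Utp14a could be counted there. Acsl3 itself had a log2 fold change of 0.19 (edgeR adjusted p = 0.252), Utp14a one of -0.13 (edgeR adjusted p = 0.369), and their part in the Utp14b value was not tested. Utp14b also lost its call without 0 h replicate 1, and Nol11 without 0 h replicate 2.

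Utp11, on chromosome 4 from 124678232 to 124693610, had the lowest log2 fold change of all 50 genes. This processome factor had 42.3 and 45.6 CPM at 0 h and 19.4 and 24.0 CPM at 5 h, and fell by 1.02 on the log2 scale (SE 0.16; 2.03-fold lower; edgeR adjusted p = 0.000522). Rrp36 had 31.3 and 31.8 CPM at 0 h and 18.9 and 24.5 CPM at 5 h (log2 -0.55 ± 0.17, edgeR adjusted p = 0.0256). Its call was lost with DESeq2 (adjusted p = 0.0713) and without 0 h replicate 1, 0 h replicate 2 or 5 h replicate 1, and the value was -0.36 in the last case. Nop14, which works with Noc4l and Emg1 in the processome, had 88.5 and 102 CPM at 0 h and 58.8 and 71.4 CPM at 5 h (log2 -0.55 ± 0.13, edgeR adjusted p = 0.00624), and was not called without 0 h replicate 2. Utp4 had 223 and 206 CPM at 0 h and 160 and 153 CPM at 5 h (log2 -0.46 ± 0.09, edgeR adjusted p = 0.00282), and was not called without 0 h replicate 1. The 8 genes that did not pass were Utp23 (0.41), Rrp12 (0.29), Utp15 (0.22), Bms1 (0.17), Utp20 (-0.08), Utp14a (-0.13), Utp6 (-0.22) and Nol10 (-0.29).

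Utp4, Utp15 and Nol11 belong to the subcomplex that binds the precursor RNA first and is known to link its transcription to its processing. Its other proteins Heatr1, Wdr43 and Wdr75 lie outside the name rule and were set beside them after their values were seen. Heatr1 (log2 0.72 ± 0.08), Wdr43 (0.79 ± 0.10) and Nol11 (0.40 ± 0.10) rose, Utp15 was at 0.22 ± 0.10 and did not pass, and Utp4 and Wdr75 (-0.63 ± 0.11) fell. Wdr43 holds 3 annotated snoRNA genes, whose part was not tested.

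Large subunit factors rose more often than they fell. Of 16 genes, 9 rose (56.2%), 1 fell (6.25%) and 6 did not pass, against 22% and 21.2% of all tested genes, with a median log2 fold change of 0.44 that became -0.40 with mitochondrial scaling. Noc2l, which carries early large subunit particles through the nucleolus, had the highest log2 fold change of all 50 genes and lies on chromosome 4 from 156234655 to 156247616. It had 192 and 190 CPM at 0 h and 570 and 519 CPM at 5 h, a log2 fold change of 1.51 ± 0.09 (2.85-fold; edgeR adjusted p = 6.85e-06), higher than 95.6% of all tested genes. It was also the one ribosome biogenesis gene that rose with mitochondrial scaling (log2 0.67, edgeR adjusted p = 0.00411). Its span overlaps Samd11 by 651 bases, and Samd11 had 15 and 0 counts at 0 h and 20 and 10 at 5 h. The span of Noc2l also overlaps Klhl17 by 203 bases and the non-coding Gm52691 by 1495 bases. Neither symbol was in the counts, and the part of these neighbours was not tested.

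Rrs1, an assembly factor of early large subunit particles, had 122 and 132 CPM at 0 h and 243 and 286 CPM at 5 h (log2 1.06 ± 0.11, edgeR adjusted p = 4.93e-05). Rrp15 had 70.8 and 65.3 CPM at 0 h and 128 and 128 CPM at 5 h (log2 0.90 ± 0.10, edgeR adjusted p = 9.81e-05). Both genes had groups that were far apart compared with the gap between replicates. Rrp1 (0.83), Nop53 (0.80), Nol9 (0.60) and Nop16 (0.59) followed on the log2 scale. Nol9 is a polynucleotide kinase that acts in the processing of the precursor between the large subunit RNAs. Rrp1b, a nucleolar relative of Rrp1, had 265 and 231 CPM at 0 h and 335 and 293 CPM at 5 h, and its change of 0.34 ± 0.10 (edgeR adjusted p = 0.0231) was not called without 0 h replicate 2. The 6 that did not pass were Nol12 (0.39), Bop1 (0.31), Rrp8 (0.22), Noc3l (0.13), Nop2 (0.12) and Nol8 (0.02).

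Pes1, Bop1 and Wdr12 form a complex that is needed for processing of the large subunit RNA, and here Pes1 rose, Bop1 did not pass and Wdr12 fell. Pes1 had 90.2 and 102 CPM at 0 h and 133 and 133 CPM at 5 h (log2 0.48 ± 0.10, edgeR adjusted p = 0.004), and was not called without 0 h replicate 1. Bop1 had 58.2 and 49.8 CPM at 0 h and 70.1 and 64.4 CPM at 5 h (log2 0.31 ± 0.13, edgeR adjusted p = 0.0724). Wdr12 had 170 and 165 CPM at 0 h and 93.8 and 101 CPM at 5 h, and fell by 0.78 on the log2 scale (SE 0.10; 1.72-fold lower; edgeR adjusted p = 0.000161). Both 5 h libraries of Wdr12 lay well below both 0 h libraries. Carf, whose annotated span overlaps that of Wdr12 by 280 bases, also fell, by 1.29 (edgeR adjusted p = 0.000497). Mroh1, which overlaps Bop1 by 52 bases, fell by 1.24 (edgeR adjusted p = 0.000978), and the part of such neighbours was not tested.

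**Figure D2:**
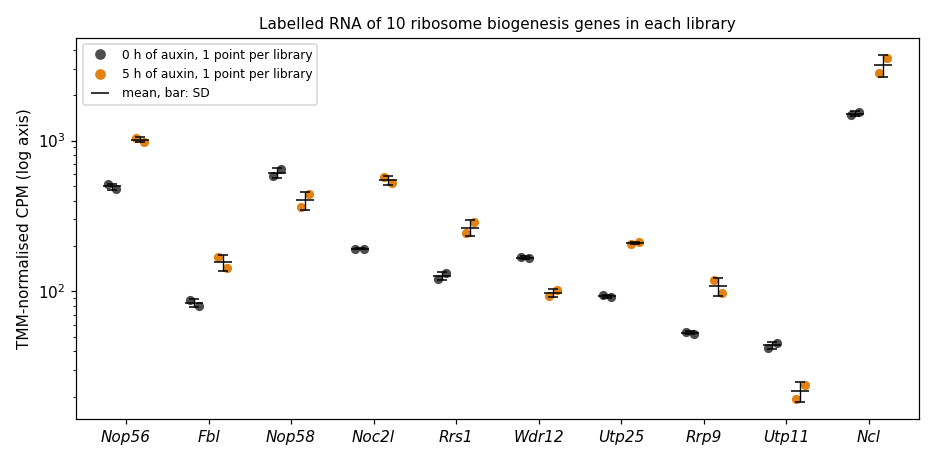
TMM-normalised CPM (log axis) of 10 ribosome biogenesis genes in each of the 4 libraries, with grey points for 0 h and orange points for 5 h of auxin, and black marks for the mean with SD (n = 2). Nop58, Wdr12 and Utp11 lie lower in both 5 h libraries, and the other 7 genes lie higher in both. Levels of different genes are not comparable, since they are not divided by length.

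The general nucleolar proteins are the most abundant proteins of the nucleolus and act at many steps. Ncl, which encodes nucleolin, had 1466 and 1542 CPM at 0 h and 2797 and 3532 CPM at 5 h, a log2 fold change of 1.07 ± 0.11 (2.10-fold; edgeR adjusted p = 4.98e-05). It alone took 0.160% and 0.169% of all counts at 0 h and 0.259% and 0.316% at 5 h. The snoRNA row Snord82 inside Ncl had 18 and 5 counts at 0 h and 74 and 44 at 5 h. It rose by 2.59 on the log2 scale (edgeR adjusted p = 0.00139), and the part of snoRNAs in the Ncl value was not tested. Nolc1, a chaperone of snoRNPs, had 222 and 215 CPM at 0 h and 297 and 310 CPM at 5 h (log2 0.47 ± 0.09, edgeR adjusted p = 0.00145). Npm1, which encodes nucleophosmin, had 919 and 1071 CPM at 0 h and 986 and 1185 CPM at 5 h. Its groups overlapped and its change of 0.13 ± 0.11 did not pass (edgeR adjusted p = 0.387). Npm1 has near-identical pseudogene copies in the genome, so its counts are uncertain.

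The last 3 genes share only the symbol: Nol3, a repressor of apoptosis, and Nol4 and Nol4l, which are not known ribosome assembly factors. Nol4l did not pass (log2 0.20 ± 0.15). Nol3 had 0 and 5 counts at 0 h and 4 and 0 at 5 h, and Nol4 had 20 and 0 counts and then 10 and 0, so neither was tested.

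Genes whose proteins work side by side were also compared within each library, where the scale drops out. The 6 gene pairs were chosen after their values were seen, so these ratios are descriptions, and an exact permutation test of 2 against 2 libraries could not go below 0.333. Nop58 had 1.13 and 1.34 counts per count of Nop56 in the 0 h libraries, and 0.347 and 0.447 in the 5 h libraries. The ratio was thus 3.13-fold lower at 5 h under any scaling. Noc3l per Noc2l, which form a dimer, went from 0.441 and 0.487 to 0.172 and 0.182 (2.61-fold lower).

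Nop14 had 2.42 and 2.94 counts per count of its partner Noc4l at 0 h, and 0.850 and 1.29 at 5 h (2.55-fold lower). Wdr12 per Pes1 went from 1.88 and 1.62 to 0.702 and 0.763, and Wdr12 per Bop1 from 2.92 and 3.32 to 1.34 and 1.58. Dkc1 per Nhp2 had the smallest shift, from 4.41 and 5.54 to 2.72 and 2.69 (1.83-fold lower). In all 6 pairs both 5 h ratios lay below both 0 h ratios. The gene with the lower log2 fold change was put on top in each pair. The shared direction thus follows from how the pairs were chosen and written, and is not a result.

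**Figure D3:**
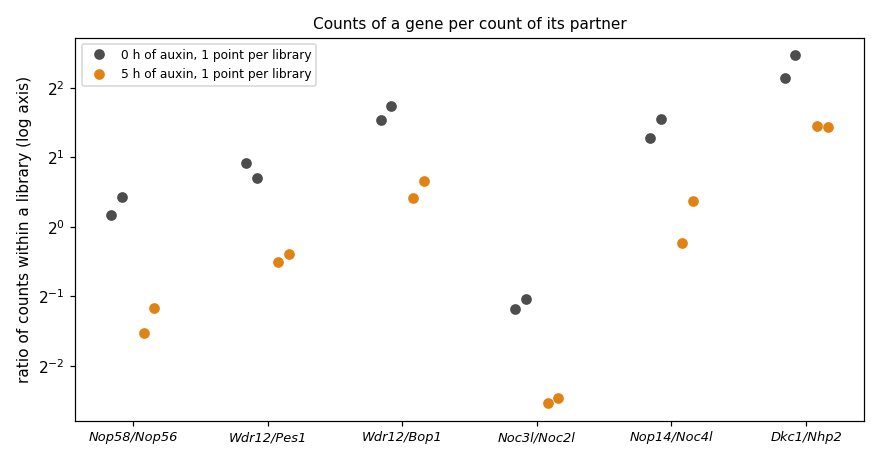
Counts of a gene divided by counts of its partner in the same library (log axis) for 6 pairs, with grey points for the 0 h libraries and orange points for the 5 h libraries. In each pair both 5 h points lie below both 0 h points, from 1.83-fold lower for Dkc1/Nhp2 to 3.13-fold lower for Nop58/Nop56. The pairs were chosen after their values were seen, with the gene of lower log2 fold change on top, which sets this direction.

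Ribosome biogenesis genes are fairly short, with a median annotated span of 13442 bases for the 50 tested genes against 19334 for the 15096 tested genes with a span. The rule did not use length. Of 20 ribosome biogenesis genes under 10 kb, 14 rose (70.0%) and 1 fell, where 30.9% of all tested genes of that length rose and 8.68% fell. Of 10 genes of 10 to 20 kb, 5 rose and 1 fell, against 22.2% and 23.4% of all genes. Of 17 genes of 20 to 50 kb, 6 rose (35.3%) and 4 fell (23.5%), against 18.8% and 31.5%. None of the 3 genes over 50 kb passed by edgeR in either direction (background 13% and 33.2%).

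The median log2 fold change of the ribosome biogenesis genes was 0.58, 0.35, 0.17 and -0.08 from the shortest to the longest class, and that of all tested genes was 0.37, -0.08, -0.21 and -0.29. Spearman's rho between span and log2 fold change was -0.40 across the 50 genes and -0.30 across all genes with a span. When each 5 h library was set against each 0 h library, it ranged from -0.38 to -0.43 for the 50 genes, and it was 0.02 and 0.03 between replicates of the 0 h and of the 5 h group. These points share the same 4 libraries and are genes, which are not replicates. Of the 6 genes that fell, Rrp36 spans 8004 bases and the other 5 span 15379 to 29455 bases. Long spans also occurred among genes that rose, such as Utp25 with 25885 bases and Rrp15 with 28273.

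**Figure D4:**
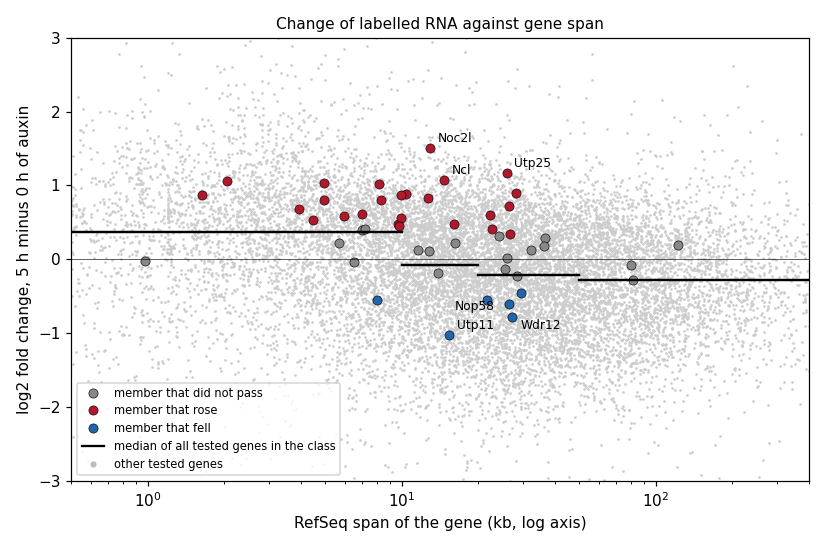
Log2 fold change (5 h minus 0 h of auxin) against the RefSeq span of the gene (kb, log axis), with the 50 ribosome biogenesis genes as large points, the other tested genes in light grey, and black lines for the median of all tested genes in 4 length classes (0.37, -0.08, -0.21 and -0.29). The large points that rose lie above the line of their class, and the points of Utp11, Wdr12 and Nop58 lie below it. Genes beyond the axis limits are not drawn.

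Promoter sequences are shown for genes at both ends of the range, namely those 3 that rose most and those 3 that fell most among called genes with a promoter in the RefSeq table. Each window runs from 250 bases before to 50 bases after an annotated start, on the gene's strand, from RefSeq with build GRCm38.p6. Where a gene has several windows, the first listed is shown. Capitals mark CACGTG, the E box bound by Myc and related factors, and CGGAAG, a core motif of ETS factors, with the latter searched on both strands (CTTCCG on the other). Noc2l lies on chr4:156235765-156236064 (+), Utp25 on chr1:193130221-193130520 (-), Ncl on chr1:86359406-86359705 (-), Wdr12 on chr1:60098451-60098750 (-), Nop58 on chr1:59684756-59685055 (+) and Rrp36 on chr17:46674277-46674576 (-).
Noc2l: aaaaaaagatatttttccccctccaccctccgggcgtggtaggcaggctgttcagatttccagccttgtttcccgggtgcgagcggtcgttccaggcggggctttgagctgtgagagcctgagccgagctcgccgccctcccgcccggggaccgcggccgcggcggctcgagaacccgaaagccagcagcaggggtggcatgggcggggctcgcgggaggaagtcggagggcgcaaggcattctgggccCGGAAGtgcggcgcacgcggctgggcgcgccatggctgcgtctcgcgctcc
Utp25: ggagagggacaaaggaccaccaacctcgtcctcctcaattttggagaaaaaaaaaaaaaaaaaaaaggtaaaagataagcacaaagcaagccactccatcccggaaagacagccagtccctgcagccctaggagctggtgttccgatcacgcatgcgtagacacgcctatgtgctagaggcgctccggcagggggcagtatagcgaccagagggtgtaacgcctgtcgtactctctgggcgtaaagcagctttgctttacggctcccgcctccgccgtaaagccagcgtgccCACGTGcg
Ncl: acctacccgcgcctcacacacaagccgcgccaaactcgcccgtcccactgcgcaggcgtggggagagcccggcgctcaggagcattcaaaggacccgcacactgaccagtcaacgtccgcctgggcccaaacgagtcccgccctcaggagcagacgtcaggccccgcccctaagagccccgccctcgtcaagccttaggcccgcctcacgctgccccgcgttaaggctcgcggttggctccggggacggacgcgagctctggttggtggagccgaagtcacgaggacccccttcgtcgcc
Wdr12: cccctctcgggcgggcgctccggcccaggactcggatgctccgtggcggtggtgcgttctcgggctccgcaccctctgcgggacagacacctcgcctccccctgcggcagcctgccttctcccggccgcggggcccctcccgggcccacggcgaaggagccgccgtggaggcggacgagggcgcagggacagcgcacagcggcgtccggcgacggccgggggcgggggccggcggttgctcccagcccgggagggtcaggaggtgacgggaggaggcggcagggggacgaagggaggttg
Nop58: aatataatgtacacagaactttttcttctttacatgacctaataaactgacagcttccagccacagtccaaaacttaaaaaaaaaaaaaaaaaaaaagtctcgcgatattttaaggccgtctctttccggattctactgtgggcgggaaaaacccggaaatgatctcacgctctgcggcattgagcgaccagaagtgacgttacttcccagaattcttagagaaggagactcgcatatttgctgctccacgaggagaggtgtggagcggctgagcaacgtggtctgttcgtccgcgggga
Rrp36: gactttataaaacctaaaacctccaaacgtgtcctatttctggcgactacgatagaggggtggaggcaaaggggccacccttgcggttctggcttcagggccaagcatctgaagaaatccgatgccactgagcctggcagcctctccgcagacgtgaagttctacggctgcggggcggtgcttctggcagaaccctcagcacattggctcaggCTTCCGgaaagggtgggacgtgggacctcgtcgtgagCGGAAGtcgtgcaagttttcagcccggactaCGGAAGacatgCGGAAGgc

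The window of Rrp36, which fell, held 4 matches to CGGAAG, that of Noc2l held 1, and that of Utp25 held 1 CACGTG. Those of Ncl, Wdr12 and Nop58 held neither, although another window of Wdr12 held CGGAAG. Of the 52 genes, 40 had at least 1 promoter in the table. CACGTG stood in a window of 9 of them (22.5%), beside 8.09% of 27025 genes with a promoter and 11.7% of the 11006 tested ones. CGGAAG stood in 24 (60%), beside 18.8% and 34.2%. TATAAA stood in 5 (12.5%), beside 15.7% and 8.80%, and the longer motif of ZBTB33 (Kaiso) in 1 (Nol9), beside 0.525% and 1.18%.

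The motifs were also counted by the direction of the change, with no test. CGGAAG was found in 10 of 21 genes that rose, 3 of 5 that fell and 11 of 14 that did not pass. CACGTG was found in 6 of 21, 1 of 5 and 2 of 14 in the same order. These are letter matches and not evidence of binding.

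Other genes of ribosome assembly that the name rule does not take were counted in the same way. Of 108 such genes, all tested, 54 rose (50%), 11 fell (10.2%) and 43 did not pass, against 22% and 21.2% of all tested genes, with a median log2 fold change of 0.35. Scaled to library totals, 33 rose (30.6%) and 29 fell (26.9%), against 13.2% and 30.3% of all tested genes. Scaled to mitochondrial RNAs, 2 rose (1.85%) and 58 fell (53.7%), near the 2.28% and 51.2% of all tested genes. The median was 0.38 without 0 h replicate 1 and 0.34 without 0 h replicate 2, both with TMM. With TMM, where 22% of all tested genes rose and 21.2% fell, 26 of 45 large subunit factors rose (57.8%) and 4 fell (8.89%). Of 37 small subunit factors 18 rose (48.6%) and 1 fell (2.70%). Of 10 snoRNP assembly factors 4 rose (40%) and none fell by edgeR. Of 16 genes of RNA polymerase I and its factors, 6 rose and 6 fell (37.5% each).

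Among these, Ppan, a large subunit factor, had 167 and 169 CPM at 0 h and 513 and 463 CPM at 5 h (log2 1.53 ± 0.09, edgeR adjusted p = 6.85e-06), and it holds 2 annotated snoRNA genes. Eif6, which keeps the subunits apart, rose by 1.26 ± 0.13, and the small subunit factors Imp3 and Ddx47 by 1.16 ± 0.16 and 0.89 ± 0.09. Gnl3l (-0.77 ± 0.10), Rpf2 (-0.48 ± 0.13) and Wdr75 fell, and Wdr3 had the lowest value among the small subunit factors that rose (0.29 ± 0.10). Wdr3 was not called with DESeq2 (adjusted p = 0.0591), without a filter on low counts, or without either 0 h library, and Rpf2 was not called without 0 h replicate 2.

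For RNA polymerase I, Taf1d, a subunit of its promoter selectivity factor, had 1181 and 1202 CPM at 0 h and 2778 and 3196 CPM at 5 h (log2 1.33 ± 0.09, edgeR adjusted p = 8.33e-06). Taf1d holds 6 annotated snoRNA genes, whose part in this value was not tested. The polymerase subunit gene Polr1e rose by 1.02 ± 0.17. The subunit gene Twistnb (-0.62 ± 0.11) and the termination factor gene Ttf1 (-0.65 ± 0.11) fell. The snoRNP assembly genes Znhit3 (0.76 ± 0.15), Znhit6 (0.64 ± 0.14), Ruvbl2 (0.44 ± 0.12) and Shq1 (0.44 ± 0.13) rose, of which Shq1 was not called without 0 h replicate 1 and Ruvbl2 not without 0 h replicate 2.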

How the data were processed

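Labelled RNA of 4 libraries was captured through biotin-HPDP and streptavidin beads, per the labels' protocols. HISAT2 2.2.1, StringTie 2.2.1, DESeq2 1.42.0 and mm10 are named, with no role, in the submitters' processing notes. Annotation and strandedness were not stated, so a gene and an antisense or overlapping partner could not be told apart. The deposited values were whole numbers and were treated as estimated counts, because their row names, per the file headers, have the form that StringTie exports. Genes were kept by filterByExpr and fitted in edgeR 4.0.16 with TMM and the robust quasi-likelihood test over all 17344 genes, 5 h minus 0 h, with Benjamini-Hochberg adjustment over all of them. Levels are TMM-normalised CPM computed here. Errors are SE of the log2 fold change, taken as its absolute value divided by the square root of the quasi-likelihood F statistic. Names and spans came from a RefSeq table of GRCm38, to which mm10 corresponds. Symbols of all 52 genes matched. Named were all 52 genes by role, with library values for the short role lists and for the 3 highest and lowest called genes of longer ones, and the 2 highest and 2 lowest called genes of each further pathway list. Heatr1, Wdr43 and Snu13 were named in addition, after their values were seen. The genes, lists and tests were chosen with earlier results of these data known. Alternatives were DESeq2 1.42.0, 2 other scalings, 2 other filters, counts divided by 4, a replicate block and leaving out each library. Leaving out a library left a single one in its group, so calls lost there can also reflect lower power.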

Additional observations from a re-analysis of the deposited data

How the results depend on the processing

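Among the alternatives, scaling moved the counts of ribosome biogenesis genes most. With library totals, where 13.2% of all tested genes rose and 30.3% fell, 16 rose and 11 fell (median 0.13). With mitochondrial scaling, where 2.28% of all tested genes rose and 51.2% fell, 1 rose and 26 fell (median -0.44). Of the 108 other pathway genes, 33 rose (30.6%) and 29 fell (26.9%) with library totals (median 0.084), and 2 (1.85%) and 58 (53.7%) with mitochondrial scaling (median -0.50), so the falling shares were near those of all genes. With counts divided by 4 the medians were 0.36 and 0.32. Leaving out each library in turn gave 22 to 28 ribosome biogenesis genes that rose, 4 to 8 that fell and medians of 0.30 to 0.44. For the pathway genes it gave 39 to 58, 7 to 12 and 0.34 to 0.38. Among the 39 genes that overlap no protein-coding gene, an alternative chosen after seeing the data, the median was 0.34. DESeq2 called 24 of the 25 genes that rose and 5 of the 6 that fell, and both filters kept all 31 calls.

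The replicate numbers gave no sign of pairing (same-numbered libraries deviated together at r = 0.05 across genes). With the replicate block the median of the ribosome biogenesis genes was 0.40, and all 31 calls of the fit without it were kept.

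Values that changed sign with mitochondrial scaling were the medians of small subunit factors (-0.45), large subunit factors (-0.40) and general nucleolar proteins (-0.37). So did Nhp2 -0.17, Nolc1 -0.37, Npm1 -0.74, Nop53 -0.034, Nol9 -0.25, Nop16 -0.25, Pes1 -0.37, Nol12 -0.44, Rrp1b -0.50, Bop1 -0.52, Rrp8 -0.63, Noc3l -0.72, Nop2 -0.73, Nol8 -0.83, Noc4l -0.020, Utp18 -0.13, Rrp7a -0.22, Nop9 -0.28, Nol7 -0.32, Utp14b -0.41, Utp23 -0.44, Nol11 -0.45, Rrp12 -0.55, Utp15 -0.63, Bms1 -0.67 and Nol4l -0.64. The same held for Wdr3 -0.56, Znhit3 -0.091, Znhit6 -0.21, Ruvbl2 -0.40, Shq1 -0.41, Heatr1 -0.13, Wdr43 -0.072 and Snu13 -0.038. With library totals Npm1 -0.14, Rrp8 -0.052, Noc3l -0.14, Nop2 -0.15, Nol8 -0.25, Utp15 -0.047, Bms1 -0.093 and Nol4l -0.070 changed sign. Near 0, leaving out each library gave values on both sides for Nop10 (-0.12 to 0.079), Gar1 (-0.090 to 0.041) and Nol8 (-0.058 to 0.11). These shifts follow from the scale for the other scalings, and otherwise the cause was not tested. Depth is uncertain beyond the totals, since estimated counts from coverage can hide counting error.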
